A study of Setaria viridis with 11 samples.

Results

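The data cover 5 transcripts of the Calvin-Benson-Bassham (CBB) cycle in leaves of *Setaria viridis*: the phosphoglycerate kinase (PGK) transcripts Si021917m and Si006583m, the phosphoribulokinase (PRK) transcripts Si017390m and Si010287m, and the sedoheptulose-bisphosphatase (SBPase) transcript Si001775m. They were taken by identifier, 5 of the 40599 transcripts in the count files, and none was lost to the filter on low counts. RNA-seq had been made from 11 wild-type plants of genotype A10, each library from pooled midsections of fully expanded leaves of a plant harvested on day 28. The 5 control plants grew at a day temperature of 28 °C and a night temperature of 20 °C, and the 6 heat-stressed plants spent the last 2 weeks at 42 °C in the light and 32 °C at night. The control night temperature is that of the sample labels, while other passages of the study name a slightly higher one. Both groups had 16 h of light at 1000 µmol quanta per square metre and second and 380 ppm CO2. The heat-stressed plants stood in a growth chamber of their own, so heat and chamber cannot be told apart.

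The CBB cycle fixes CO2 with Rubisco and rebuilds its acceptor, ribulose bisphosphate. PGK uses ATP to phosphorylate phosphoglycerate, the product of Rubisco, and a cytosolic PGK serves glycolysis. SBPase removes a phosphate from sedoheptulose bisphosphate in a practically irreversible step of the regeneration of the acceptor, and PRK, which completes this regeneration, phosphorylates ribulose phosphate. PRK and SBPase are found only in the cycle and are switched on in the light through thioredoxin. In a C4 grass such as *S. viridis*, Rubisco and the regeneration of its acceptor are housed in the bundle sheath, while PGK works in both mesophyll and bundle sheath chloroplasts. By their closest Arabidopsis matches, Si021917m corresponds to a chloroplast PGK, Si006583m to the cytosolic PGK, Si017390m and Si010287m to the same chloroplast PRK, and Si001775m to the chloroplast SBPase. Their locus names in the *S. italica* annotation are Seita.3G192600 and Seita.4G267900 for the PGK transcripts, Seita.1G283800 and Seita.7G221500 for the PRK transcripts and Seita.5G384700 for SBPase, which place them on chromosomes 3, 4, 1, 7 and 5.

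Libraries held 34362084 to 54011056 counts in control plants and 34731849 to 47441261 in heat-stressed plants. The chloroplast transcript psbA made up between 61.8% and 69.6% of each control library and between 46.1% and 48.5% of each heat-stressed one. Levels are therefore given in CPM, which are counts relative to a library size corrected by TMM factors that allow for such a shift in composition. Of 18065 transcripts tested with the quasi-likelihood test of edgeR, 63.1% passed an adjusted p of 0.05, 32.2% higher and 30.9% lower under heat, and 44.9% had groups without overlap. The median log2 fold change was 0.02. Scaling by library size only moved this median to 1.07, so values under that scaling are also given relative to its median. A change of scaling moves all log2 fold changes by nearly the same amount. These relative values are therefore close to those by TMM from the outset and are no separate check. Of the 5 transcripts, all 5 passed this test. With TMM scaling, all 3 mesophyll markers and 4 of 5 bundle sheath markers were lower under heat, with log2 fold changes from -0.43 to -1.06. The remaining bundle sheath marker, NADP-malic enzyme Si000645m, changed by -0.76 and did not pass (edgeR adjusted p = 0.0865). Marker changes are given for TMM scaling only. Every marker was detected in every plant. In whole leaves, fewer cells of a type and less RNA per cell cannot be told apart.

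The PGK transcripts moved in opposite directions under heat, with Si021917m at 1.85-fold lower levels in the heat-stressed plants and Si006583m at 4.05-fold higher levels. The chloroplast-type transcript Si021917m had 357, 273, 386, 272 and 329 CPM in control plants 1 to 5. In heat-stressed plants 1 to 6 it had 176, 101, 224, 162, 200 and 187 CPM. Every heat-stressed plant lay below every control plant, and plant 2 was the lowest of the heat-stressed plants. The level was 323 ± 50.8 CPM (SD, n = 5) in controls and 175 ± 41.9 CPM (n = 6) under heat, a log2 fold change of -0.89 (SE 0.17, edgeR adjusted p = 4.59e-04). This fall turned to a rise of 0.15 on the log2 scale (edgeR adjusted p = 0.460) under scaling by library size only, where the transcript stood 0.92 below the median transcript (-0.92).

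The cytosolic-type transcript Si006583m had 5.23, 3.94, 4.23, 3.82 and 4.30 CPM in control plants 1 to 5, from 78 to 145 counts per plant. Heat-stressed plants 1 to 6 had 18.9, 20.7, 14.9, 14.4, 18.7 and 16.8 CPM, from 728 to 1351 counts. The groups were far apart, and plant 2, the lowest in Si021917m, was the highest here. Means were 4.30 ± 0.555 CPM (SD, n = 5) and 17.4 ± 2.46 CPM (n = 6), a log2 fold change of 2.02 (SE 0.12, edgeR adjusted p = 1.40e-08). A rise at least as large, past the same threshold, was found in 7.91% of the tested transcripts. The summed CPM of the pair, not corrected for length, was 328 ± 51.2 CPM (SD, n = 5) in controls and 192 ± 40.5 CPM (n = 6) under heat.

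Both PRK transcripts were lower under heat, Si017390m by 3.05-fold and Si010287m by 1.46-fold. Control plants 1 to 5 had 212, 161, 185, 133 and 220 CPM of Si017390m. The heat-stressed plants 1 to 6 had 60.0, 25.2, 76.3, 49.4, 70.2 and 77.2 CPM. The groups did not overlap, and plant 2 was again the lowest. Means were 182 ± 36.2 CPM (SD, n = 5) and 59.7 ± 20.0 CPM (n = 6), a log2 fold change of -1.61 (SE 0.24, edgeR adjusted p = 4.40e-05). A fall of at least this size was found in 7.68% of the tested transcripts. By library size only, the change of Si017390m was smaller, -0.56 (edgeR adjusted p = 0.0269), and relative to the median transcript it was -1.63.

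The second PRK transcript, Si010287m, had 12.2, 11.5, 12.9, 9.69 and 13.8 CPM in control plants 1 to 5. Under heat, plants 1 to 6 had 6.81, 9.03, 11.3, 5.92, 8.58 and 7.54 CPM. Here the groups overlapped, since heat-stressed plant 3 lay above control plant 4. The log2 fold change was -0.55 (SE 0.15, edgeR adjusted p = 0.00608), from 12.0 ± 1.54 CPM (SD, n = 5) to 8.20 ± 1.91 CPM (n = 6). Its direction also depended on the scaling, with a change of 0.51 (edgeR adjusted p = 0.0126) by library size only and of -0.56 relative to the median transcript there. The summed CPM of the PRK pair was 194 ± 37.6 CPM (SD, n = 5) in controls and 67.9 ± 20.4 CPM (n = 6) under heat.

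SBPase, Si001775m, was 2.63-fold lower under heat. Its levels were 212, 236, 267, 264 and 285 CPM in control plants 1 to 5. Those of the heat-stressed plants 1 to 6 were 80.9, 48.6, 121, 77.5, 130 and 119 CPM. No heat-stressed plant reached the lowest control plant, and plant 2 had the lowest value of all. Means were 253 ± 28.7 CPM (SD, n = 5) and 96.1 ± 32.0 CPM (n = 6), a log2 fold change of -1.40 (SE 0.21, edgeR adjusted p = 5.05e-05). A fall as large or larger was found in 9.67% of the tested transcripts. By library size only, the change was -0.37 and no longer passed the test (edgeR adjusted p = 0.118), and relative to the median transcript it was -1.44.

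**Figure D1:**
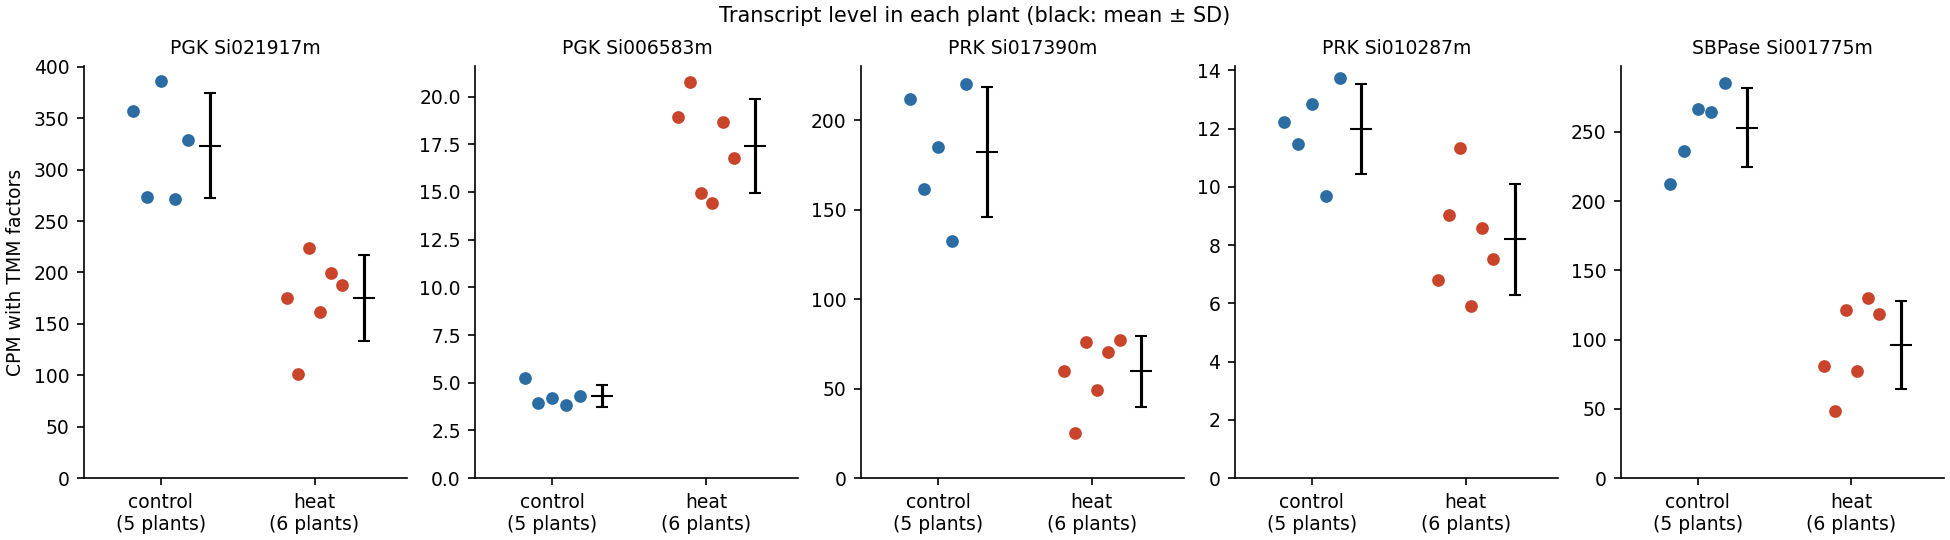
Level of the 5 transcripts in each plant, in CPM with TMM factors, each panel with its own axis from 0. Points are plants (5 control, blue, and 6 heat-stressed, red) and black marks are means ± SD. Groups are apart in 4 panels and overlap for Si010287m. Scaling by library size only turns the direction of Si021917m and Si010287m.

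The transcripts also differed in how far plants of a group lay apart. In the control plants the highest level was 1.34 to 1.66 times the lowest for the 5 transcripts. In the heat-stressed plants this ratio was 3.07 for Si017390m, 2.67 for SBPase and 2.21 for Si021917m, but 1.91 for Si010287m and 1.44 for Si006583m. Plant 2 alone set the lowest value of the first 3, at 25.2, 48.6 and 101 CPM. In the same order, plant 4 was next with 49.4, 77.5 and 162 CPM, and the highest values were 77.2, 130 and 224 CPM. The wider spread of these 3 under heat thus rested in large part on 1 plant. The coefficient of variation of SBPase was 11.4% in controls and 33.3% under heat, and that of Si017390m was 19.8% and 33.4%. For Si006583m it was 12.9% and 14.1%. The difference in spread between groups was not tested.

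Which of the paralogs gave the counts was next compared within each plant, where scaling between libraries plays no part. The cytosolic-type Si006583m took 1.32% ± 0.148 (SD, n = 5) of the counts of the PGK pair in controls and 9.66% ± 3.77 (n = 6) under heat. This difference of 8.33 percentage points had p = 0.00216 by exact permutation (2-sided), which is as small as 5 against 6 plants can give. Transcript lengths were not used here, so these are shares of counts and not of molecules.

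The lowest control share of the PGK pair was 1.08% in plant 3 (Wilson 95% interval 0.920% to 1.27%) and the highest 1.44% in plant 1 (1.22% to 1.70%). Among the heat-stressed plants the lowest was 6.27% in plant 3 (5.88% to 6.68%). Plant 2 had 17.0% (16.2% to 17.9%), followed by plant 1 with 9.72% (9.22% to 10.2%). All heat-stressed plants thus exceeded all controls by more than counting error, and plant 2 stood above the other heat-stressed plants by more than counting error. Reads amplified by PCR are not independent molecules, and the intervals cover counting error only. Without plant 2 the difference was 6.86 points (exact permutation p = 0.00794).

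For PRK, Si010287m took 6.25% ± 0.567 (SD, n = 5) of the counts of the pair in controls and 13.3% ± 6.52 (n = 6) under heat, a difference of 7.08 points (2-sided exact permutation p = 0.00433). Control plants ranged from 5.45% in plant 1 (Wilson 95% interval 4.90% to 6.06%) to 6.80% in plant 4 (6.14% to 7.53%). Heat-stressed plant 6 had the lowest share under heat, 8.89% (8.08% to 9.77%), and plant 1 had 10.2% (9.34% to 11.1%). Plant 2 had 26.4% (24.6% to 28.2%), and its interval lay above those of all other plants. Without it the difference was 4.47 points, smaller by more than 1.5 times (exact permutation p = 0.00794), and the groups still did not overlap.

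**Figure D2:**
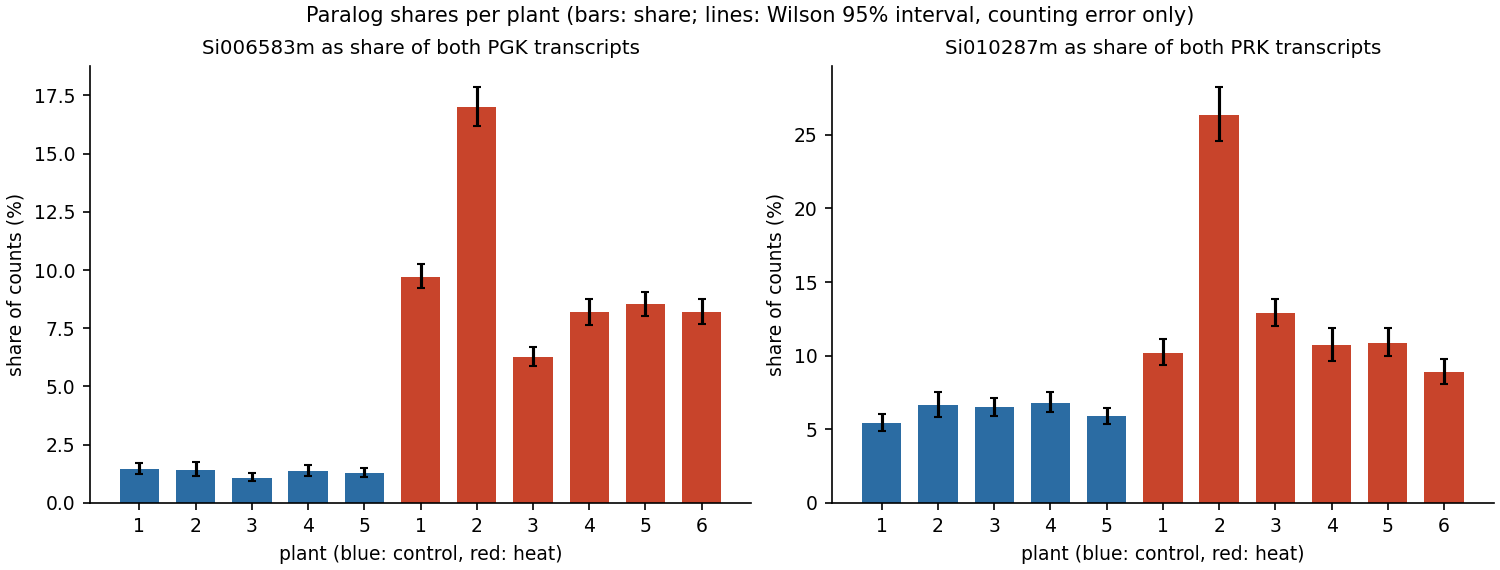
Share of the counts of each paralog pair taken by Si006583m (left, PGK) and by Si010287m (right, PRK), in percent, for control plants 1 to 5 (blue) and heat-stressed plants 1 to 6 (red). Lines are Wilson 95% intervals for counting error. Heat-stressed plant 2 has the highest share in both pairs, 17.0% and 26.4%.

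The shares of both pairs rose, but through different changes of their members. In PGK the cytosolic-type member rose while the chloroplast-type member fell (the latter only with scaling other than library size only), and the log2 count ratio of Si021917m over Si006583m went from 6.23 ± 0.17 (SD, n = 5) to 3.30 ± 0.54 (n = 6). In PRK both members fell by TMM scaling, Si017390m further, and the log2 count ratio of Si017390m over Si010287m went from 3.91 ± 0.14 to 2.80 ± 0.68. The PGK ratio shifted further than the PRK ratio by 1.82 on the log2 scale (2-sided exact permutation p = 0.00216), with no overlap between groups. That last comparison was chosen after the values were seen.

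Ratios of counts between all 10 pairs of the 5 transcripts showed which of them changed by unlike amounts, again without scaling. Of the 10 ratios, 8 differed between the groups (2-sided exact permutation test, adjusted over the 10 pairs). The ratios are not independent, since they share transcripts. Over all tested transcripts, 63.1% passed the test on levels and 44.9% had groups without overlap. Ratios between other transcripts were not tested, so the count of 8 cannot be called particular to these 5. PRK Si017390m fell further than PGK Si021917m, with a log2 ratio of Si021917m over Si017390m that was 0.76 higher under heat (adjusted exact p = 0.00433). It was higher in 6 of 6 heat-stressed plants than in any control, where it ranged from 0.58 to 1.06, against 1.28 to 2.01 under heat. Si021917m over SBPase was 0.55 higher (adjusted exact p = 0.0162), in 4 of 6 plants above all controls. The ratios of Si006583m to the PRK and SBPase transcripts rose by 2.58 to 3.69 on the log2 scale (adjusted exact p = 0.00433 for each), in all 6 plants above every control.

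The remaining PRK Si017390m and SBPase, which both act in the regeneration of ribulose bisphosphate, had a log2 ratio of -0.49 ± 0.36 (SD, n = 5) in controls and -0.70 ± 0.19 (n = 6) under heat. This difference of -0.21 did not pass (adjusted exact p = 0.229), and no heat-stressed plant lay outside the range of the controls. Without control plant 4, which had the lowest ratio of its group (-0.99), it was -0.34 with an unadjusted exact permutation p of 0.0333. Si021917m over Si010287m differed by -0.34 and did not pass either (adjusted exact p = 0.142), with 3 of 6 heat-stressed plants below all controls. Neither result shows that the transcripts of these pairs changed alike. Si010287m over SBPase was 0.90 higher under heat (adjusted exact p = 0.00928), and without heat-stressed plant 2 it was 0.68 higher.

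**Figure D3:**
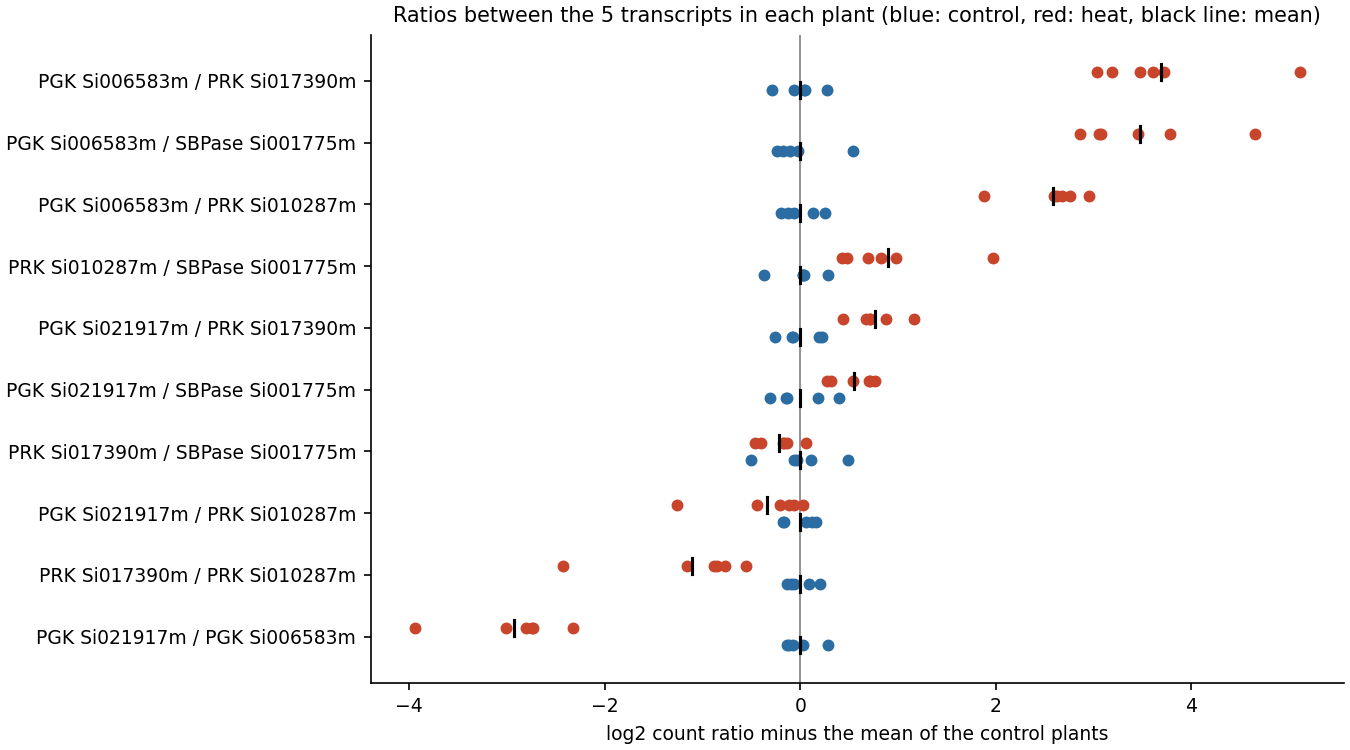
Log2 count ratios of the 10 pairs in each plant, on the horizontal axis as the difference from the mean of the control plants, with control plants in blue, heat-stressed plants in red and means as black lines. Ratios with Si006583m lie farthest from 0. Those of Si017390m over SBPase, of Si021917m over Si010287m and of Si021917m over SBPase overlap with the controls.

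Within the heat-stressed plants, Si021917m, Si017390m and SBPase went up and down together from plant to plant. Over the 6 plants, Pearson's r of log2 levels was 0.98 between Si021917m and Si017390m, 0.94 between Si021917m and SBPase and 0.95 between Si017390m and SBPase (exact permutation p = 0.00556, 0.00694 and 0.00972, adjusted over the 10 pairs 0.0324 for each). Spearman's rho was 0.83, 0.94 and 0.77 for the same pairs (exact permutation p = 0.0583, 0.0167 and 0.103, adjusted p = 0.292, 0.167 and 0.343), so that none passed by rank after adjustment. Without the 2 plants farthest from the median of the first-named transcript, r was 0.88, 0.94 and 0.85.

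Plant 2 had the lowest level of all 3 transcripts. Without it, r was 0.84, 0.84 and 0.90, and no pair passed over the remaining 5 plants (adjusted exact permutation p = 0.2 for each). None of the 3 pairs passed with any other plant left out either, where r was at least 0.94 and the lowest adjusted exact permutation p was 0.0556. The levels share the scaling factor of their library, which also enters r. No correlation was tested in the 5 control plants, but the joint movement with SBPase seen under heat did not appear in their spreads. There the SD of the log2 ratio was 0.21, 0.29 and 0.36 for the same 3 pairs, while the SD of the log2 level was 0.23 for Si021917m, 0.30 for Si017390m and 0.17 for SBPase, so that both ratios to SBPase varied more than either of their transcripts. Under heat, the SD of the ratios was 0.24, 0.22 and 0.19, below the 0.40, 0.61 and 0.54 of the levels of Si021917m, Si017390m and SBPase. These SDs include plant 2, the lowest in all 3 levels. Without plant 2, the log2 level of Si021917m ranged from 7.34 to 7.80, and its log2 ratio to SBPase ranged no less widely, from 0.62 to 1.12. For that pair the lower SD of the ratio thus depended on plant 2. The difference between the groups was not tested.

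The other 7 pairs, each with Si006583m or Si010287m, gave r between -0.57 and 0.23 and adjusted exact permutation p from 0.604 to 0.888. Their rho lay between -0.37 and 0.43, with an adjusted exact permutation p of 0.714 for each. All 7 values of r moved when plant 2 was left out. Those of Si010287m went from 0.15 to 0.99 with Si021917m (adjusted exact permutation p = 0.0833), from 0.07 to 0.79 with Si017390m and from 0.23 to 0.78 with SBPase. Those of Si006583m went from -0.57 to 0.02 with Si021917m, from -0.51 to 0.24 with Si017390m, from -0.44 to 0.17 with SBPase and from 0.12 to -0.06 with Si010287m. Without plants 2 and 3, the 2 farthest from the median of Si021917m, r with Si021917m was 1.00 for Si010287m and 0.71 for Si006583m. The other 5 pairs, without the 2 plants farthest from the median of 1 of their transcripts, had r from -0.88 to 0.62.

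**Figure D4:**
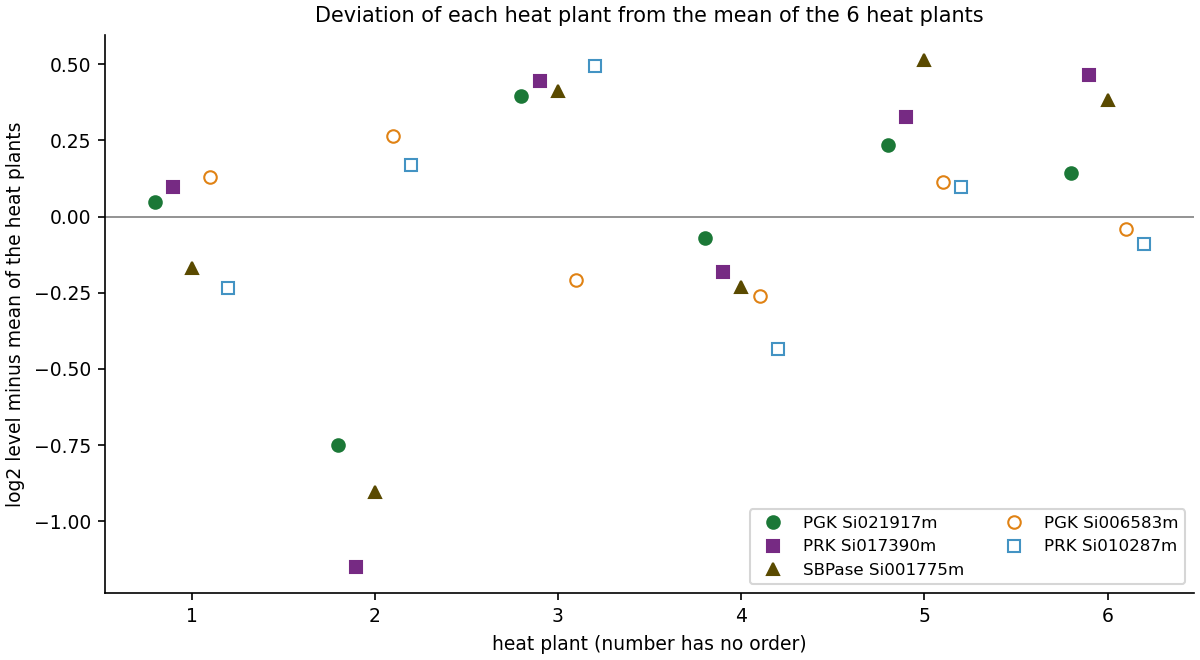
Log2 level of each transcript in each of the 6 heat-stressed plants, as the difference from the mean of the 6 (vertical axis). Filled symbols are Si021917m, Si017390m and SBPase, open symbols Si006583m and Si010287m. In plant 2 the filled symbols are the lowest of the 6 plants and the open symbols lie above 0.

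Other photosynthesis transcripts were low in plant 2 as well. Of the 23 tested transcripts of the CBB list that were lower under heat, 21 had their lowest heat-stressed value in plant 2, as did 18 of the 19 that remained without the transcripts described here. Among all tested transcripts lower under heat, 30.8% did. The summed level of the 3 mesophyll markers was 5513 CPM in plant 2, the lowest of a range up to 15295 CPM among the heat-stressed plants, and that of the 5 bundle sheath markers was 17210 CPM in a range up to 21761 CPM. In the controls these sums ranged from 14040 to 20108 CPM and from 27461 to 36323 CPM. Plant 2 did not stand apart in depth (43493665 counts) or in its share of psbA (46.6%). The part of these differences in the results was not tested.

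Further PGK and PRK transcripts were listed at low counts. PGK Si001253m, whose Arabidopsis and rice matches are those of Si021917m, had 16, 14, 12, 21 and 16 counts in control plants 1 to 5 and 80 to 147 counts (median 94.5) under heat. It rose with a log2 fold change of 1.76 (SE 0.20, edgeR adjusted p = 4.20e-06), opposite to the direction of Si021917m under TMM scaling, and its groups did not overlap. Si038742m, matched to a chloroplast PGK of Arabidopsis but to a rice locus of its own, had 57 to 116 counts in controls and 200 to 305 under heat (log2 fold change 0.54, SE 0.15, edgeR adjusted p = 0.00486, with overlap in CPM). The cytosolic-type Si017403m had no count in any plant, which allows up to 3 counts per plant, and Si017405m had 0 to 3 counts. Counts were made per transcript, so reads on exons that such alternative transcripts share may have been set aside as ambiguous, and a count of 0 does not show that the gene was silent.

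The third PRK transcript, Si017712m, had 6 to 23 counts in controls and 3 to 17 under heat, with overlapping groups (log2 fold change -1.41, SE 0.48, edgeR adjusted p = 0.0203). Of the PGK transcripts tested, 1 was lower and 3 were higher under heat, and of the PRK transcripts tested all 3 were lower, against 30.9% lower and 32.2% higher over all tested transcripts. Adding these further transcripts to the denominators left both paralog shares on the same side of the test.

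Set against the whole cycle, the falls of Si021917m, Si017390m, Si010287m and SBPase stood among many. The CBB list of the study's annotation holds 60 transcripts, with 37 left after filtering and 14 without a count in any plant. Of the 37, 23 were lower, 9 higher and 5 not past the test, against 30.9% lower and 32.2% higher over all tested transcripts. Their median log2 fold change was -0.62 against 0.02 over all tested transcripts. By library size only, 5 of the 37 were lower and 18 higher, where 1386 of all 18065 tested transcripts were lower and 13216 higher. Without the 5 transcripts described above, 19 of 32 were lower and 8 higher.

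Of the 37, 17 were lower with groups that did not overlap, where 21.3% of all tested transcripts were of this kind. Among these 17, the carboxylation step was represented by the Rubisco large subunit Si020845m (-0.61) and 3 small subunit transcripts. Of the small subunit transcripts, Si023461m fell furthest (-2.08), before Si023466m (-1.06) and Si023465m (-0.78). The Rubisco-interacting Si022121m (-1.35) was also lower without overlap. Other enzymes of the regeneration phase were among the 17, with transketolase Si005927m at -1.14 and ribulose-phosphate epimerase Si036994m at -1.17 (edgeR adjusted p = 3.22e-05 and 5.08e-06). Also among the lower transcripts were 4 of the 7 fructose-bisphosphate aldolase transcripts, of which Si006745m was matched to a cytosolic enzyme and the others to chloroplast enzymes. Si026480m was 4.01-fold lower, from 1601 ± 228 CPM (SD, n = 5) in controls to 399 ± 131 CPM (n = 6) under heat (edgeR adjusted p = 3.86e-06), and Si003349m, Si006745m and Si010312m changed by -1.88, -1.61 and -1.21 on the log2 scale. CP12 Si003343m, a small protein that binds PRK and glyceraldehyde-3-phosphate dehydrogenase in the dark, changed by -0.54 (edgeR adjusted p = 0.00185). The log2 fold change of SBPase, -1.40, was close to that of Rubisco activase Si026402m, -1.30, the chaperone that frees Rubisco of inhibitory sugar phosphates.

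The 7 higher transcripts without overlap, where 23.4% of all tested transcripts were of this kind, included PGK Si006583m and Si001253m. The others were the second Rubisco activase Si027442m (6.48), the Rubisco-interacting Si021853m (0.60), the aldolases Si017614m (1.22, matched to a cytosolic enzyme) and Si001803m (0.54) and the fructose-bisphosphatase Si006593m (0.84). A match to a cytosolic enzyme did not go with 1 direction, since 3 of the 6 tested transcripts with such a match were lower, among them fructose-bisphosphatase Si002088m at -1.80, and 2 were higher. Of the 28 matched to a chloroplast enzyme, 19 were lower and 5 higher. Over all tested transcripts, 30.9% were lower and 32.2% higher.

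**Figure D5:**
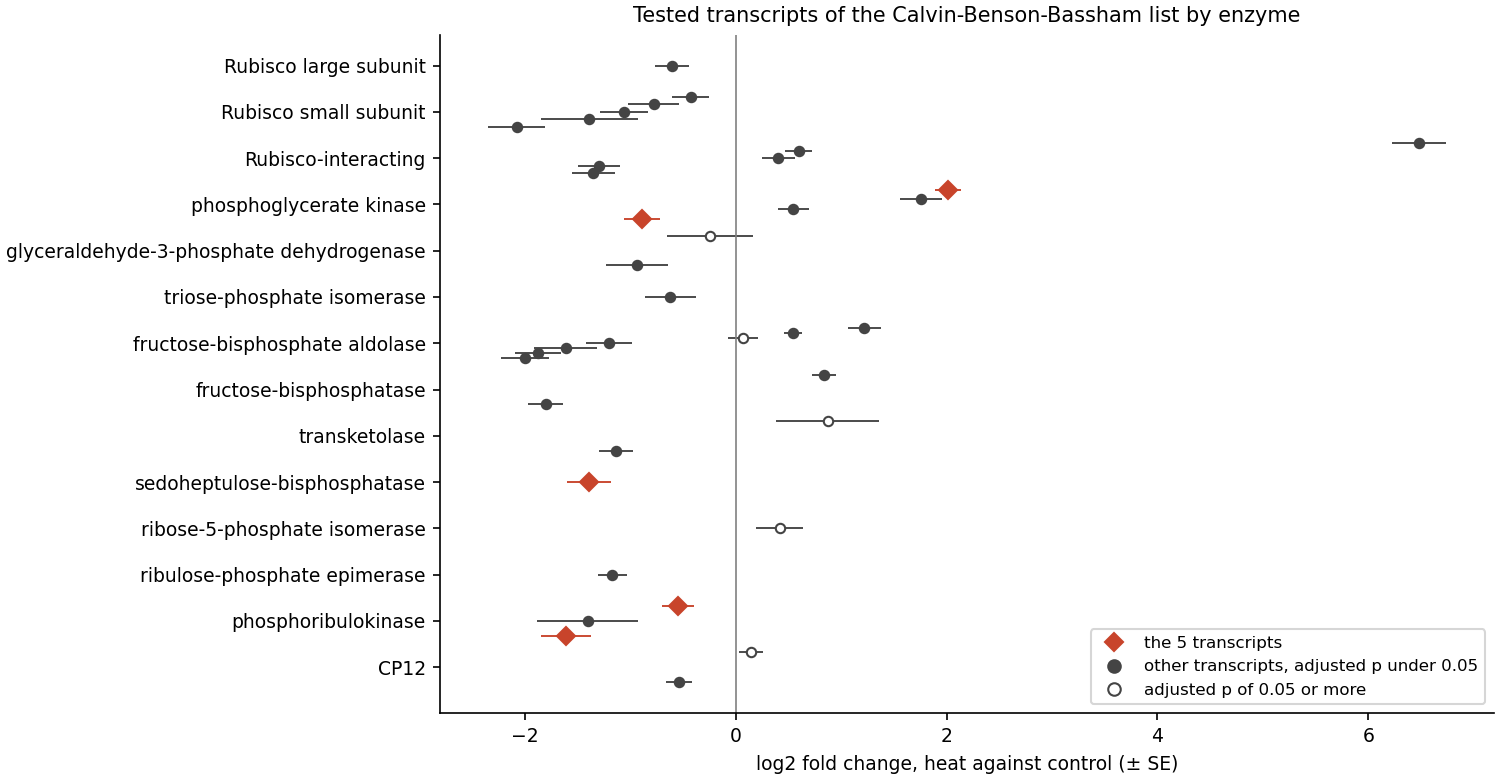
Log2 fold change (heat against control, horizontal axis, ± SE, TMM scaling) of the 37 tested transcripts of the CBB list by enzyme. Red diamonds are the 5 transcripts, filled symbols have an adjusted p under 0.05. PGK has members on both sides of 0 and all 3 PRK transcripts lie below 0. By library size only, Si021917m and Si010287m lie above 0.

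The transcripts whose counts followed each of the 5 most closely were sought by the SD of the log2 count ratio over the 11 plants, among 4094 transcripts (4095 for Si010287m) with a mean of at least 10 CPM. Since the plants form 2 groups, a like change under heat enters this measure. Nearest to SBPase was Rubisco activase Si026402m, with an SD of 0.16, followed by Si036365m (0.17) and Si030374m (0.18), and the aldolase Si010312m was in place 5. Nearest to PRK Si017390m was Si031176m (0.14), annotated as NDF4, a ferredoxin-like iron-sulfur protein, then Si018575m (0.20) and Si018111m (0.21), annotated as the light-harvesting protein LHCA5.

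For PGK Si021917m the nearest were Si019802m (0.12), Si006575m (0.13) and Si002809m (0.14), with transketolase Si005927m in place 9. PRK Si010287m was followed by Si025301m (0.18), Si016503m (0.19) and Si014235m (0.19), and PGK Si006583m by Si031174m (0.17), Si020861m (0.18) and Si029041m (0.18). No name is given for these in the annotation used here. None of the 3 nearest transcripts was shared between any of the 5.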

How the data were processed

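RNA-seq had been performed by the authors on leaves of 5 control and 6 heat-stressed plants. Per their methods, rRNA was depleted before strand-specific library construction, reads were trimmed (Trimmomatic) and mapped with TopHat2 against release 2.1 of the *S. italica* genome, and HTSeq assigned them to exons in union mode. The strand setting of HTSeq is not given in the sources used here. The deposited values are raw counts per transcript, given separately for read pairs and single reads, and were summed per plant. Counting by transcript sets aside reads shared by overlapping or alternative transcripts: ambiguous reads came to 29.9 to 34.8 per 100 counts other than psbA in controls and to 30.5 to 33.6 under heat. With psbA included, ambiguous reads made up 8.52% to 11.2% of counted plus ambiguous reads in controls. Under heat this share was higher, at 13.7% to 15.2%, without overlap between the groups. No 2 libraries agreed within sampling noise. Summary lines of the files were left out.

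Low counts were filtered with filterByExpr and groups compared with the quasi-likelihood test of edgeR 4.0.16 (R 4.3.3, TMM factors, prior count 2 on the log scale, Benjamini-Hochberg adjustment over all tested transcripts, threshold 0.05), as the unpaired comparison of 2 groups used in the study. The biological coefficient of variation was 0.223. Shares, count ratios and correlations were tested with 2-sided exact permutation tests (Python 3.11.15, scipy 1.17.1), and figures drawn with matplotlib 3.10.9. The scripts were tested on simulated data. Depths of 34362084 to 54011056 counts make counting error small beside the spread of plants, except for transcripts with few counts.

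Named are the 5 transcripts, the other PGK and PRK transcripts of the CBB list, listed transcripts past the threshold whose groups did not overlap, and the 3 transcripts nearest to each of the 5. Of the nearest and listed transcripts, names come from the study's annotation. The 5 transcripts and the lists were chosen with earlier results of these data known. Plants were treated as unpaired, since they were grown separately and the comparison in the study was unpaired. Deviations of same-numbered plants had correlations from -0.02 to 0.15. Their mean was 0.042, against -0.0088 for the other pairs of a control and a heat-stressed plant, a difference that was not tested. Alternatives were DESeq2 (1.42.0) size factors and Wald test, upper-quartile factors, library size only, psbA left out, other filters, read pairs or single reads only, a replicate block and each plant left out. Sequences and transcript lengths were not used here.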

Additional observations from a re-analysis of the deposited data

Results flagged for a closer look

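Of 34 groups of values examined (levels, shares and ratios in each group), 8 held a plant whose gap to the next exceeded Dixon's 95% limit, where chance gives about 1 in 20. The groups are not independent, since ratios share transcripts. Heat-stressed plant 2 was the plant in 6 of them. Its share of Si006583m in the PGK pair was 17.0%, against 9.72% in the next plant, and its share of Si010287m in the PRK pair was 26.4%, against 12.9%. Its log2 count ratios were 3.49 for Si021917m over Si010287m (next 4.30), -0.28 for Si006583m over Si017390m (next -1.67), 1.48 for Si017390m over Si010287m (next 2.75) and -2.43 for Si010287m over Si001775m (next -3.42). The log2 ratio of Si006583m over Si010287m was 0.40 in heat-stressed plant 3 (next 1.12). Among control plants, plant 1 had a log2 ratio of Si006583m over Si001775m of -5.34 (next -5.91).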

How the results depend on the processing

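The log2 fold changes of the 5 transcripts kept their direction and their side of the threshold under every alternative but library size only, which moved the median transcript to 1.07. There Si021917m had 0.15 (edgeR adjusted p = 0.460), Si010287m 0.51 (edgeR adjusted p = 0.0126) and Si001775m -0.37 (edgeR adjusted p = 0.118), while the list counted 5 lower and 18 higher and all transcripts 1386 lower and 13216 higher. Single reads only gave 3007 higher and 2778 lower transcripts over all and 4 higher in the list, from 10434 tested transcripts. By library size only, r was -0.014 for Si021917m and -0.12 for Si017390m, each with Si010287m.

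Plants share only a number, and a replicate block, with edgeR, gave 5575 higher and 5350 lower transcripts and kept all 5 calls. For single values, 5 pairs allow no p under 0.0625 (exact sign permutation), which all the following had. The differences in share were 8.62 (PGK) and 7.97 points (PRK). On the log2 scale, ratios under the replicate block differed by -2.96 (Si021917m over Si006583m), 0.83 (Si021917m over Si017390m), 0.60 (Si021917m over Si001775m), 3.79 (Si006583m over Si017390m), 2.57 (Si006583m over Si010287m), 3.56 (Si006583m over Si001775m), -1.22 (Si017390m over Si010287m) and 0.99 (Si010287m over Si001775m), and the PGK ratio against the PRK ratio by 1.75.

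With each plant left out in turn, Si017390m over Si001775m ranged from -0.34 to -0.090. Correlations among heat-stressed plants ranged from 0.84 to 1.00 (Si021917m and Si017390m), 0.84 to 0.96 (Si021917m and Si001775m) and 0.90 to 0.98 (Si017390m and Si001775m), and none of these passed with 5 plants. The others ranged from -0.80 to 0.019 (Si021917m and Si006583m), -0.35 to 0.99 (Si021917m and Si010287m), -0.76 to 0.24 (Si006583m and Si017390m), -0.48 to 0.82 (Si006583m and Si010287m), -0.74 to 0.17 (Si006583m and Si001775m), -0.31 to 0.79 (Si017390m and Si010287m) and -0.067 to 0.78 (Si010287m and Si001775m). The cause of these changes was not tested.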
